A study of Homo sapiens with 11 samples.

Results

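Genes that mark the loop of Henle, the distal convoluted tubule and the collecting duct were examined in HK2 cells, an immortalised line of human proximal tubule cells. The 10 genes were taken by name from the 58243 genes of the RNA-seq data, and all 10 were among the 19645 protein-coding genes that had a position in GRCh37. They are UMOD, SLC12A1, SLC12A3, KCNJ1, SCNN1A, SCNN1B, SCNN1G, TRPM6, CALB1 and AVPR2. The cells were grown in 1 condition, in DMEM-F12 with 10% serum and 0.05% DMSO, and no treatments or genotypes were compared. RNA-seq had 2 libraries, and ChIP-seq of H3K4me3 (a mark of promoters), H3K27ac (of active promoters and enhancers) and H3K27me3 (of chromatin silenced by Polycomb proteins) had 2 replicates each. Nothing in the labels says that replicates came from separate cultures, so the spread between them may be technical.

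In the kidney, salt that leaves the proximal tubule is taken up again in steps. The thick ascending limb of the loop of Henle uses the cotransporter NKCC2, encoded by SLC12A1, together with the potassium channel ROMK, encoded by KCNJ1, and secretes uromodulin, encoded by UMOD. The distal convoluted tubule uses the thiazide-sensitive cotransporter NCC, encoded by SLC12A3, and handles magnesium and calcium with TRPM6 and calbindin-D28k, the product of CALB1. The connecting tubule and collecting duct use the epithelial sodium channel ENaC, whose subunits are encoded by SCNN1A, SCNN1B and SCNN1G, and the vasopressin receptor V2, encoded by AVPR2. None of these genes is a marker of the proximal tubule.

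The label of the cells was first set against markers of the proximal tubule. Of 19 such genes, 5 reached an FPKM of 1 in both libraries (FPKM gives fragments per kilobase of transcript, scaled to the library's total), against 58.8% of all protein-coding genes. GGT1, a gamma-glutamyltransferase of the brush border, was highest at 61.1 ± 4.3 (SD, n = 2). PDZK1, MIOX, SLC5A2 and GATM were at means of 17.7, 11.8, 1.96 and 1.96 FPKM. LRP2, SLC22A6, SLC22A8 and HNF4A, genes of the mature segment, were among the 7 listed at 0 in both libraries. Of 10 epithelial and mesenchymal markers, 9 reached 1 FPKM in both libraries, against the same 58.8%. They were EPCAM (mean 40.7 FPKM) and the keratin genes KRT7 (40), KRT8 (182), KRT18 (56.1) and KRT19 (123). The others were the cadherin genes CDH2 (59.5) and CDH6 (116), the vimentin gene VIM (921) and the fibronectin gene FN1 (2340). The exception was CDH1, the epithelial cadherin gene, at 0.21 and 0.283 FPKM with all 3 marks at its starts. The markers of the labelled segment were thus in part listed at 0 and in part above 1 FPKM. The distal genes are described below as genes of a cell line and not of a nephron segment.

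For the sequences before the start sites, 7 of the 10 genes had entries in the RefSeq promoter table (GRCh38.p14), with 12 windows in all, and each window was also found letter for letter in GRCh37. SCNN1A, SCNN1G and CALB1 had none. The windows of 5 genes are shown because they differ in the peaks found at them, as the 250 bases before the start, from 5′ to 3′ on the strand of the gene, with each CpG in capitals. UMOD (GRCh37, chr16:20364038-20364287, minus strand) had no peak within 1 kb of any start. SLC12A3 (chr16:56898869-56899118, plus strand) had an H3K4me3 peak near it in 1 replicate. SCNN1B (chr16:23313373-23313622, plus strand) lay inside an H3K27me3 peak in both replicates. TRPM6 (chr9:77502264-77502513, minus strand, the furthest downstream of its 3 starts in the table) lay inside an H3K4me3 peak in both replicates, and AVPR2 (chrX:153167829-153168078, plus strand, the furthest upstream of 3) inside an H3K27ac peak in both.
UMOD: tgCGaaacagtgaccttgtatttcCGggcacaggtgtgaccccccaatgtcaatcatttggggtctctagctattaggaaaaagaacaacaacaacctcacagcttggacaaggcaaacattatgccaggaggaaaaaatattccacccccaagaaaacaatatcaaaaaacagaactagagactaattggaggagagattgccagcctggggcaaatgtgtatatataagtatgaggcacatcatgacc
SLC12A3: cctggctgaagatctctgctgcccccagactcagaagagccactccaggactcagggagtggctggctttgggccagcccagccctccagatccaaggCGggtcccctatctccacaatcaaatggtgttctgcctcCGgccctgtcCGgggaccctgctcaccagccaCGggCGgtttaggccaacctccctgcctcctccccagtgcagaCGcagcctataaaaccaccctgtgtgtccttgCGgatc
SCNN1B: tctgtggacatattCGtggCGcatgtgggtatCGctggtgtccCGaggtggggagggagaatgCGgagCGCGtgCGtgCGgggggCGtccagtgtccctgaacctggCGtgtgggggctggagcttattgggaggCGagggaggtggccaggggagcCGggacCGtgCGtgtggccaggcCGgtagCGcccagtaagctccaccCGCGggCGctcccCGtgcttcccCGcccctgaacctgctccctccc
TRPM6: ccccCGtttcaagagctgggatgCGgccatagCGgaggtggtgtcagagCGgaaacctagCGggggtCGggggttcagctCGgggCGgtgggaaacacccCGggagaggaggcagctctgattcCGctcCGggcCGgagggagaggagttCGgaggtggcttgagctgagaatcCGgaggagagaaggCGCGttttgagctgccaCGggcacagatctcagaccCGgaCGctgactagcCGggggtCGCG
AVPR2: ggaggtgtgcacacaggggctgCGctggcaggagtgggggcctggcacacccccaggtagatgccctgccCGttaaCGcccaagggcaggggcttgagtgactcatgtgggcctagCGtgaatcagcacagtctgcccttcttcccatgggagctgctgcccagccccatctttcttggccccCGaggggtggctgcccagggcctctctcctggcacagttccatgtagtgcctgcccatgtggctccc

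The capitals show how unevenly CpG was spread over these windows. Over the 22199 windows of protein-coding genes in the table, the median was 16 CpG in 250 bases, with quartiles of 5 and 25. The windows of SCNN1B and TRPM6 had 22 CpG each, more than 64.2% of all windows. UMOD had 2, and the window before the canonical start of SLC12A1 had 1, a count below which only 3.18% of windows fell. SLC12A3 had 7, KCNJ1 had 6 and 3 at its 2 starts, and AVPR2 had 5, 3 and 4 at its 3 starts. Among all genes, taking the highest window of each, the median was 3 CpG for genes with no mark at a start in both replicates, 4 with H3K27ac alone, 11 with H3K27me3 alone, 20 with H3K4me3 alone and 24 with H3K4me3 and H3K27ac. Counts varied widely within these sets. SCNN1B, with 22, was at the upper quartile of genes with H3K27me3 alone (quartiles 4 and 22). TRPM6, also with 22, lay within the quartiles for H3K4me3 alone (14 and 27). The unmarked SLC12A3 lay within those of its set (1 and 8), as did AVPR2 with H3K27ac alone (2 and 8). SLC12A1 was counted with H3K4me3 and H3K27ac, and its canonical window had the fewest CpG. That canonical start was at least 14317 bp from any peak of either mark, so the window is not the marked one. The letters TATAAA, searched on both strands, occurred in 3 of the 12 windows (SLC12A3, the upstream start of KCNJ1 and the middle start of AVPR2), against 9% of all windows.

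None of the 10 genes reached an FPKM of 1 in both libraries, whereas 58.8% of all protein-coding genes did. The median over the 10 genes was 0.00538 FPKM, against 3.32 FPKM over all protein-coding genes. UMOD, SLC12A1, KCNJ1 and SCNN1B were listed at 0 in both libraries, which was the case for 19.6% of all genes. SCNN1A and AVPR2 were the 2 genes at or above 0.1 FPKM in both libraries, a level that 68.8% of all genes reached. In TPM, the same values scaled to a fixed total, SCNN1A was at 2.56 and 1.63 and was the 1 gene above 1 in both libraries, against 63.8% of all genes. The depth behind these values was 5.67 Gb of aligned sequence in library 1 and 5.52 Gb in library 2. The commonest non-zero total of aligned bases for a gene with 1 transcript was 300 in both libraries, and this was taken as 1 read pair. Read pairs are not independent molecules, so the intervals and limits given for them cover counting error only.

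**Figure D1:**
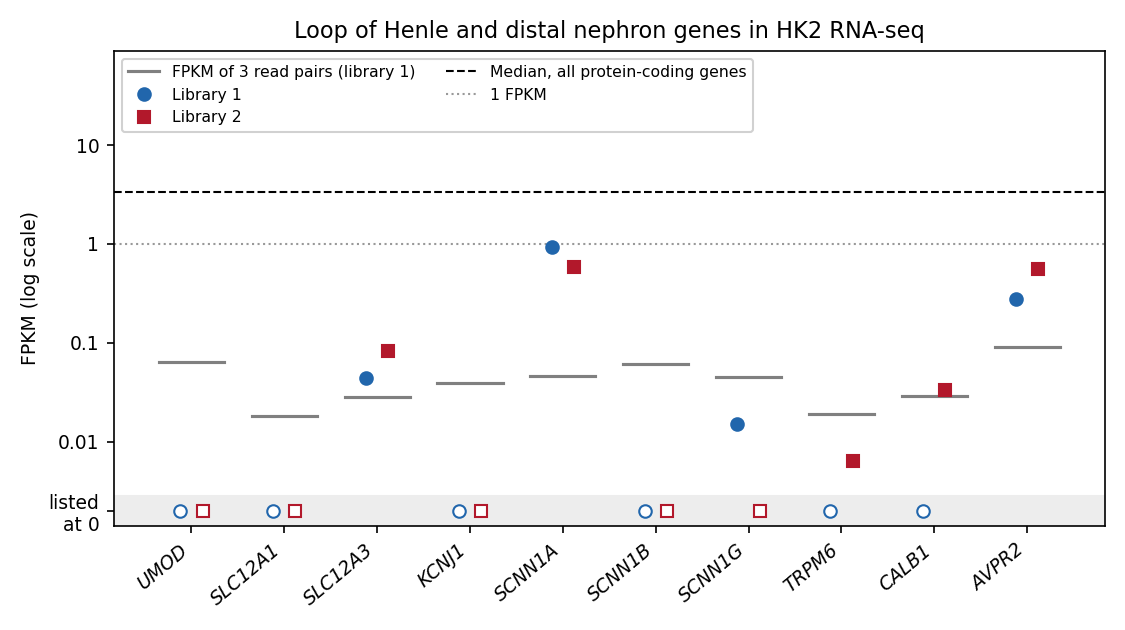
FPKM (log scale) of each gene in RNA-seq library 1 (circles) and library 2 (squares), with open symbols in the grey band for values listed at 0. Grey bars give the FPKM of 3 read pairs in library 1 on the longest transcript (the 1 read pair of CALB1 was assigned to shorter transcripts), the dashed line the median of all protein-coding genes (3.32) and the dotted line an FPKM of 1. SCNN1A and AVPR2 lie between 0.278 and 0.927, SLC12A3 is lower in both libraries, 3 genes are above 0 in a single library and 4 are at 0 in both.

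Uromodulin, the most abundant protein of normal urine, is encoded by UMOD (ENSG00000169344, chromosome 16 from 20344373 to 20367623, minus strand). UMOD was listed at 0 FPKM in library 1 and at 0 FPKM in library 2. The limit used for a count of 0, 3 read pairs on the longest transcript, would be 0.064 FPKM and 0.066 FPKM in the libraries, and more on a shorter transcript. Its 9 annotated start sites had no peak of any mark within 1 kb in either replicate, as was also the case for KCNJ1, and 15.1% of all protein-coding genes were of this kind. The H3K4me3 peaks closest to the canonical start lay at 387500 bp in replicate 1 and at 146263 bp in replicate 2. One H3K27me3 peak of replicate 1 lay over the gene body, 727 bp wide and 14547 bp downstream of the canonical start, with no counterpart in replicate 2. UMOD was therefore the gene with the fewest peaks among the 10.

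KCNJ1 (ENSG00000151704, chromosome 11 from 128706210 to 128737268, minus strand), whose channel returns potassium to the lumen for NKCC2, was listed at 0 FPKM in both libraries. The limit set by 3 read pairs was 0.039 FPKM and 0.04 FPKM. Unlike UMOD, it had H3K27me3 over the gene body in both replicates. The H3K27me3 peaks of replicate 1 were 2025 bp wide (128720765 to 128722789) and 416 bp wide, and that of replicate 2 was 428 bp wide (128722281 to 128722708), inside the wider peak of replicate 1. They were at least 14402 bp downstream of the canonical start, so the H3K27me3 of KCNJ1 lay within the gene and away from its upstream starts. H3K27ac replicate 1 had 2 intronic peaks, 538 and 437 bp wide, apart from the H3K27me3 peaks and 2970 to 4239 bp downstream of the canonical start. H3K27ac replicate 2 had none over the gene.

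SLC12A1 (ENSG00000074803, chromosome 15 from 48470635 to 48596275, plus strand) was listed at 0 FPKM in both libraries, with a limit of 0.018 FPKM and 0.019 FPKM. Yet it was counted with the genes that carry H3K4me3 and H3K27ac near a start in both replicates. Only 0.732% of the 10248 genes with those 2 marks and no H3K27me3 were listed at 0 in both libraries. The H3K4me3 peaks were 1836 bp wide in replicate 1 (48469225 to 48471060) and 926 bp in replicate 2, and the H3K27ac peaks 1644 and 674 bp. These peaks hold the starts of MYEF2, a gene on the opposite strand with FPKM of 9.15 and 12.2, and of CTXN2, with 0.0274 and 0. The start of SLC12A1 inside 3 of these peaks and 85 bp from the fourth, at 48470635, belongs to a transcript that is in the GENCODE version 44 annotation and not in the RNA-seq annotation. The canonical start, at 48498499, was 27439 bp from the H3K4me3 peak of replicate 1, 14317 bp from a second peak of replicate 2, and 27440 and 27949 bp from the H3K27ac peaks. With canonical starts alone, SLC12A1 had no peak of either mark within 1 kb.

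SLC12A3 (ENSG00000070915, chromosome 16 from 56899119 to 56949762, plus strand), the target of thiazide diuretics, was at 0.044 FPKM in library 1 and 0.0827 FPKM in library 2, a mean of 0.0634 ± 0.0274 (SD, n = 2). These values stand for 3.99 read pairs (95% Poisson interval 1.08 to 10.2) and 5.99 read pairs (2.19 to 13), so the libraries did not differ beyond counting error. In the transcript ENST00000262502, which held most of these bases in both libraries, exons 1 to 18 of 26 had a coverage of 0 in both. The coverage began at exon 19, and in exon 21 it was 1.55 in library 1 and 4.29 in library 2. In that transcript the signal thus lay over the 3′ exons. H3K4me3 replicate 2 had 12 peaks over the gene body, 1 of them 184 bp downstream of the canonical start, whereas replicate 1 had 1 peak, 219 bp wide. At least 12 peaks in that replicate were seen over 2.43% of all protein-coding genes. H3K27ac replicate 1 had peaks of 2355 and 407 bp in the gene, and replicate 2 had none. Over the body SLC12A3 was thus counted for H3K4me3 in both replicates, though the peak of replicate 1 shared no base with those of replicate 2, and no H3K27me3 peak lay over it in either.

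The 3 ENaC subunit genes differed in both RNA and chromatin. SCNN1A, which encodes the alpha subunit needed for channel assembly, was at 0.927 FPKM in library 1 and 0.585 FPKM in library 2, SCNN1B was listed at 0 FPKM in both, and SCNN1G was at 0.0151 FPKM in library 1 and listed at 0 FPKM in library 2. The levels are per length of transcript and can be set side by side. SCNN1A was above SCNN1B and SCNN1G in both libraries, while SCNN1B and SCNN1G could not be ordered, since SCNN1G rested on 1 read pair in library 1 and 0 in library 2.

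The alpha subunit gene SCNN1A (ENSG00000111319, chromosome 12 from 6456009 to 6486896, minus strand) had the highest FPKM of the 10 genes, 0.756 ± 0.242 (SD, n = 2), a level above that of 38.7% of all protein-coding genes. The values rest on 20.6 read pairs (95% Poisson interval 12.7 to 31.6) and 23.7 read pairs (15.2 to 35.4). Library 1 thus had the higher FPKM from fewer read pairs. A short transcript, ENST00000536411 of 593 nt, was at 0.339 and 0.0493 FPKM in the libraries, while ENST00000360168 was at 0.199 and 0.287 FPKM. By the highest single transcript in place of the sum, the mean was 0.313 FPKM for SCNN1A and 0.322 FPKM for AVPR2. The rank of SCNN1A therefore depended on the sum over transcripts. SCNN1A overlaps LTBR, a receptor gene on the opposite strand with FPKM of 64.3 and 56.6, and whether reads were assigned by strand is not given in the sources used here. Of its 23 transcripts, 10 share exon bases with LTBR and carried 0.689 and 0.391 FPKM, and the other transcripts carried 0.238 and 0.193 FPKM. Only exon bases were compared. The LTBR gene spans 6484211 to 6500737, which also holds the starts of ENST00000536411 (6485194) and ENST00000545605 (6486856). The latter was at 0.131 FPKM in library 1 and 0 in library 2. ENST00000360168 shares 180 bases of its first exon with LTBR. Of its exons, 12 of 12 were covered in library 1 and 10 of 12 in library 2. The last exon of that transcript, at 1411 nt the longest, had a coverage of 1.04 and 0.96 in the libraries and overlaps no exon of another gene. The part of LTBR reads in the SCNN1A values was not tested.

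At the canonical start of SCNN1A, H3K4me3 replicate 1 had a peak of 1692 bp (6484656 to 6486347) that holds the start. Replicate 2 had a peak of 319 bp (6483848 to 6484166) that begins 563 bp downstream, and the peaks of the replicates shared no base. The H3K27ac peaks near the start were 2003 bp wide in replicate 1 (6484496 to 6486498) and 503 bp in replicate 2 (6485554 to 6486056), and these did overlap. A second H3K27ac region lay in an intron 2148 to 6586 bp downstream of the start. It was a single peak of 4439 bp in replicate 1 (6478143 to 6482581) and 2 peaks of 2108 and 1486 bp in replicate 2. H3K4me3 replicate 1 had 3 peaks, 472 to 676 bp wide, inside the same region, and replicate 2 had none there. SCNN1A was the gene with H3K27ac both at a start and within its introns in both replicates, and the H3K27me3 peak nearest to any of its 20 starts was 99255 bp away.

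SCNN1B (ENSG00000168447, chromosome 16 from 23289552 to 23392615, plus strand), the beta subunit gene, was at a count of 0, where 3 read pairs on the longest transcript would be 0.061 FPKM and 0.063 FPKM. The canonical start at 23313623 lay inside an H3K27me3 peak of 2416 bp in replicate 1 (23312016 to 23314431) and of 1461 bp in replicate 2 (23313173 to 23314633). No H3K4me3 or H3K27ac peak lay over the gene body in any replicate, so SCNN1B carried a single mark. SCNN1G (ENSG00000166828, chromosome 16 from 23194066 to 23228204, plus strand), the gamma subunit gene, has 1 annotated start and lies 61.3 kb upstream of SCNN1B. H3K4me3 peaks of 250 bp (replicate 1) and 429 bp (replicate 2) began 11 and 35 bp downstream of that start. An H3K27me3 peak of 1152 bp in replicate 1 began 370 bp downstream, and a peak of 794 bp in replicate 2 held the start. SCNN1G was the only 1 of the 10 genes with H3K4me3 and H3K27me3 near the same start in both replicates, and both marks were measured over the cell population, so that their presence on the same chromosome copy was not tested. Between the 2 genes, H3K27ac replicate 1 had 2 peaks and H3K27me3 replicate 1 had 1 peak, and the other 4 lists had 0.

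**Figure D2:**
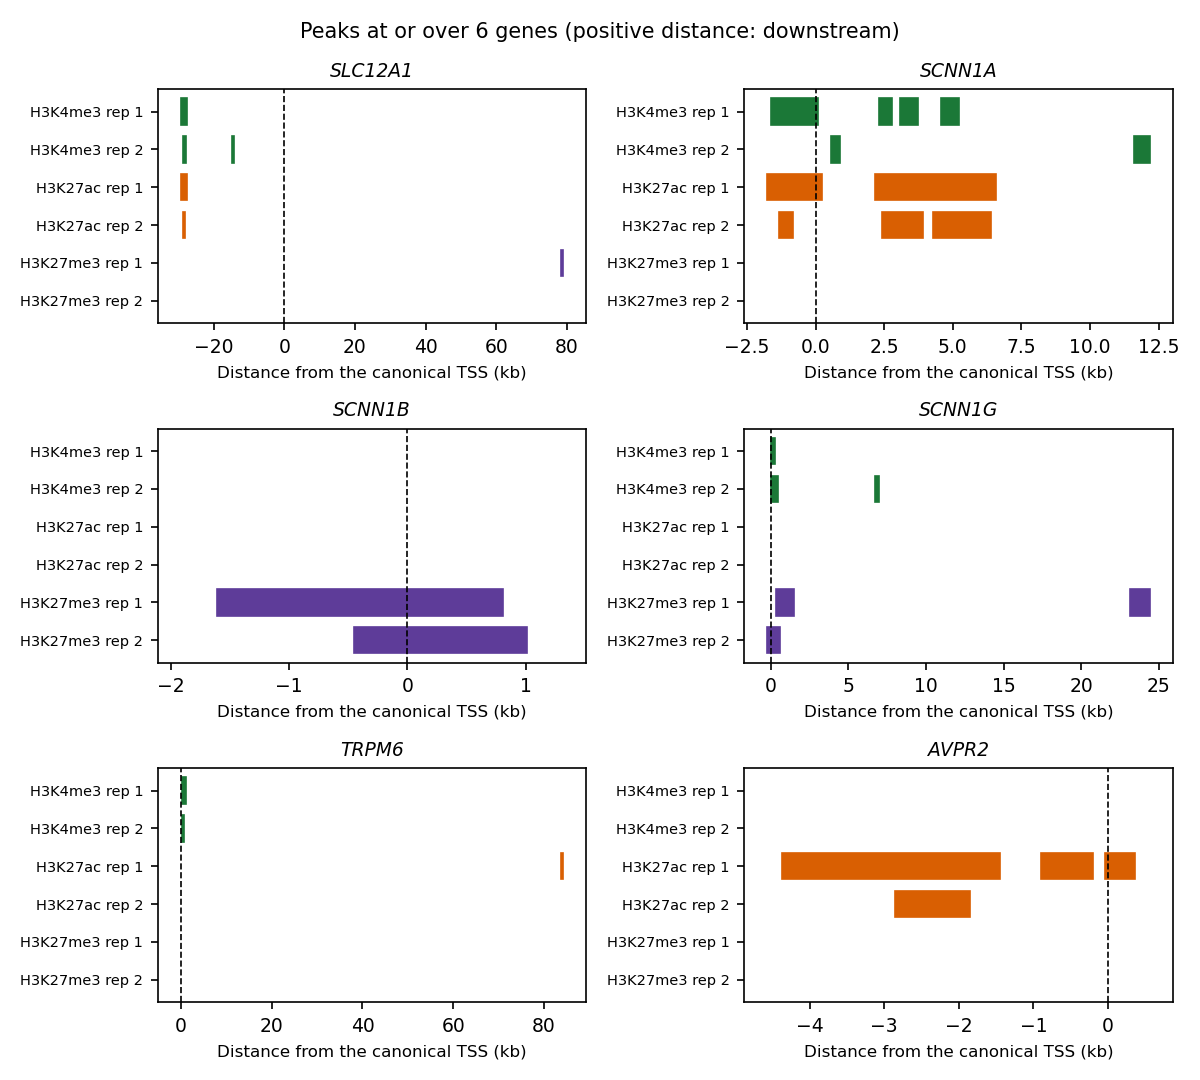
Peaks at the starts and over the bodies of 6 genes, drawn by their distance from the canonical start site in kb along the direction of transcription, with 1 row per ChIP-seq replicate and the dashed line at the start. The SLC12A1 peaks of H3K4me3 and H3K27ac lie upstream of the canonical start, those of SCNN1A around it and in the intron, and the H3K27me3 peaks of SCNN1B across it.

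The divalent cation genes were at the limit of detection. TRPM6 (ENSG00000119121, chromosome 9 from 77337411 to 77503010, minus strand), an epithelial magnesium channel, was listed at 0 FPKM in library 1 and was at 0.00645 FPKM in library 2, where it rested on 1 read pair. CALB1 (ENSG00000104327, chromosome 8 from 91070836 to 91107703, minus strand), a cytosolic calcium buffer, was listed at 0 FPKM in library 1 and was at 0.0334 FPKM in library 2, again 1 read pair. With 0 read pairs the 95% Poisson interval reaches 3.69, so neither gene was told apart from 0. Their chromatin differed nonetheless. TRPM6 had an H3K4me3 peak of 891 bp in replicate 1 (77501704 to 77502594) and of 493 bp in replicate 2 (77502044 to 77502536), both holding the start at 77502263, and the nearest H3K27ac peak was 63575 bp from its upstream starts. CALB1 had H3K27me3 peaks of 906 and 735 bp that hold its start at 91094643, further H3K27me3 peaks in the gene (2 in replicate 1 and 1 in replicate 2), and no H3K4me3 or H3K27ac peak over the gene.

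AVPR2 (ENSG00000126895, chromosome X from 153167985 to 153172620, plus strand), whose product raises cyclic AMP in the collecting duct in response to vasopressin, was at 0.278 FPKM in library 1 and 0.56 FPKM in library 2, a mean of 0.419 ± 0.199 (SD, n = 2). These values stand for 8.42 read pairs (95% Poisson interval 3.73 to 16.3) and 17.1 read pairs (9.96 to 27.3), and the intervals overlap. The libraries divided this signal differently over transcripts. In library 1 all of it, 0.278 FPKM, was assigned to ENST00000434679, a transcript annotated as a target of nonsense-mediated decay, which held 0.0982 FPKM in library 2. Library 2 gave 0.367 FPKM to ENST00000358927, which was at 0 in library 1, and 0.0953 FPKM to ENST00000370049. The 4 exons of ENST00000434679 had a coverage of 1.35 to 1.96 in library 1, whereas in library 2 the first had 2.34 and the other 3 had 0.0976 or less. The 4 exons of ENST00000358927 had a coverage of 0.969 to 3.68 in library 2. The start of ENST00000434679, at 153167985, lay inside the H3K27ac peaks of replicate 1 (2929 bp, 153165752 to 153168680) and replicate 2 (997 bp, 153167277 to 153168273). The canonical start at 153170127 lay inside a peak of replicate 1 (415 bp) and 1854 bp from the peak of replicate 2. The H3K4me3 peak nearest to an AVPR2 start was 15259 bp away. ARHGAP4, on the opposite strand, lies from 153172821 to 153200452, just past the end of AVPR2, and was at 26.4 and 22.8 FPKM. The part of ARHGAP4 reads in the AVPR2 values was not tested.

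Counted together, 4 of the 10 genes had an H3K4me3 peak within 1 kb of a start in both replicates (SLC12A1, SCNN1A, SCNN1G and TRPM6), against 70.3% of all protein-coding genes. For H3K27ac the count was 3 (SLC12A1, SCNN1A and AVPR2), against 55% of all genes. For H3K27me3 it was also 3 (SCNN1B, SCNN1G and CALB1), against 11.4%. Over the gene body, H3K4me3 was present in both replicates for 5 genes, against 73.1%, H3K27ac for 2 genes, against 59.4%, and H3K27me3 for 4 genes, with KCNJ1 added, against 16.1%. With 10 genes chosen by name these counts are a description, and no test was made. Peak lists of unequal length lie behind them: H3K4me3 had 29130 peaks in replicate 1 and 73942 in replicate 2, H3K27ac had 57761 and 38639, and H3K27me3 had 45924 and 32746. The authors also report the fraction of mapped reads in peaks, which differed widely between the H3K27ac replicates and was lowest for H3K27me3. A missing peak can therefore reflect a weaker library. The median H3K4me3 peak was 1194 bp wide in replicate 1 and 434 bp in replicate 2, the longer list. Whether narrow peaks found in that list alone, as at the start of SLC12A3, are spurious was not tested. The H3K27ac peaks over SLC12A3, KCNJ1 and TRPM6 were all in replicate 1, the longer list.

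**Figure D3:**
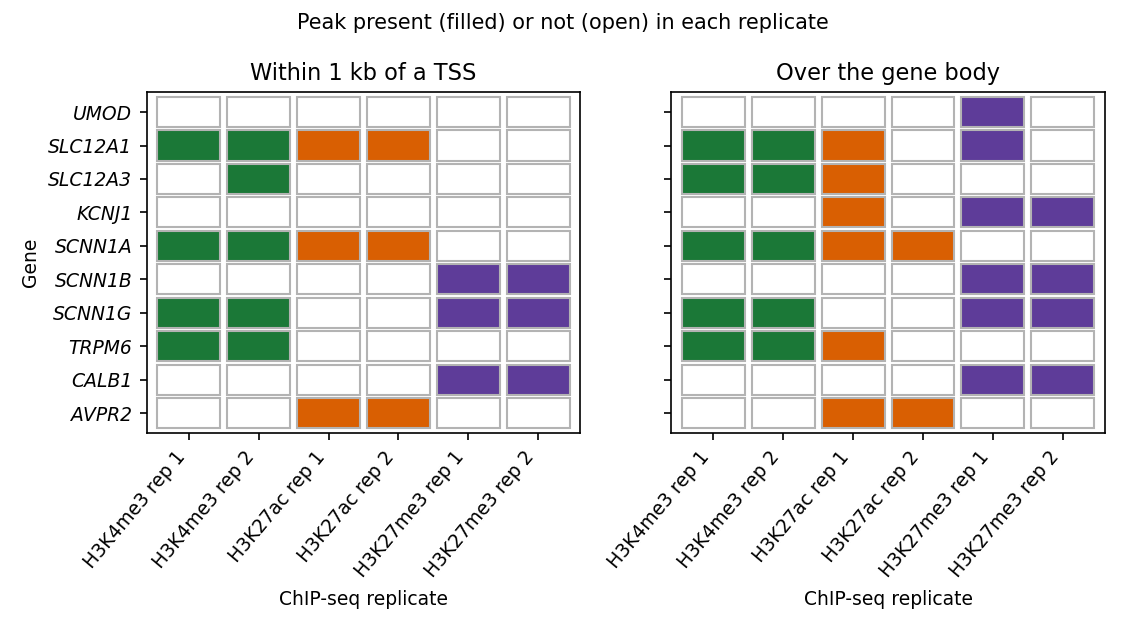
Presence (filled) or absence (open) of a peak in each ChIP-seq replicate, within 1 kb of a start site (left) and over the gene body (right), for the 10 genes in rows, with H3K4me3 in green, H3K27ac in orange and H3K27me3 in violet. The start sites of UMOD and KCNJ1 are open throughout, and H3K27me3 is filled for SCNN1B, SCNN1G and CALB1 in both replicates.

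The 10 genes held 6 of the 8 possible sets of marks at their starts, and the FPKM of each could be read against all genes with the same set. UMOD, SLC12A3 and KCNJ1 were among 4680 genes with no mark in both replicates, whose median was 0 FPKM, with 61.6% listed at 0 in both libraries. SCNN1B and CALB1 were among 851 genes with H3K27me3 alone, of which 67.8% were listed at 0. UMOD, KCNJ1 and SCNN1B were thus at 0 as most such genes were, while 78.9% of the genes with the same marks were lower than SLC12A3. CALB1 was not ranked, since it rested on 1 read pair. AVPR2 was among 303 genes with H3K27ac alone, of median 0.571 FPKM, and 44.2% of them were lower. SCNN1G was among 1126 genes with H3K4me3 and H3K27me3, of median 0.0995 FPKM and lower quartile 0.0148 FPKM, and its mean of 0.00754 FPKM was below both. That mean rests on 1 read pair in library 1 and is 0 without that library.

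TRPM6, SLC12A1 and SCNN1A also lay low among genes with the same marks. TRPM6 was among 2175 genes with H3K4me3 alone, whose median was 2.65 FPKM and lower quartile 0.59 FPKM. Its mean of 0.00323 FPKM was below both but rested on 1 read pair in library 2, so it was not ranked further. SLC12A1 and SCNN1A were among 10248 genes with H3K4me3 and H3K27ac, whose median was 11.7 FPKM and of which 92.6% reached 1 FPKM in both libraries. Of these genes, 5.67% were lower than SCNN1A. The start regions of SLC12A1 and SCNN1A are those that also hold starts of expressed genes, MYEF2 in both marks for SLC12A1 and LTBR in the H3K27ac peak of replicate 1 for SCNN1A. The canonical start of LTBR, at 6493328, lay inside separate peaks of both marks in all 4 lists.

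**Figure D4:**
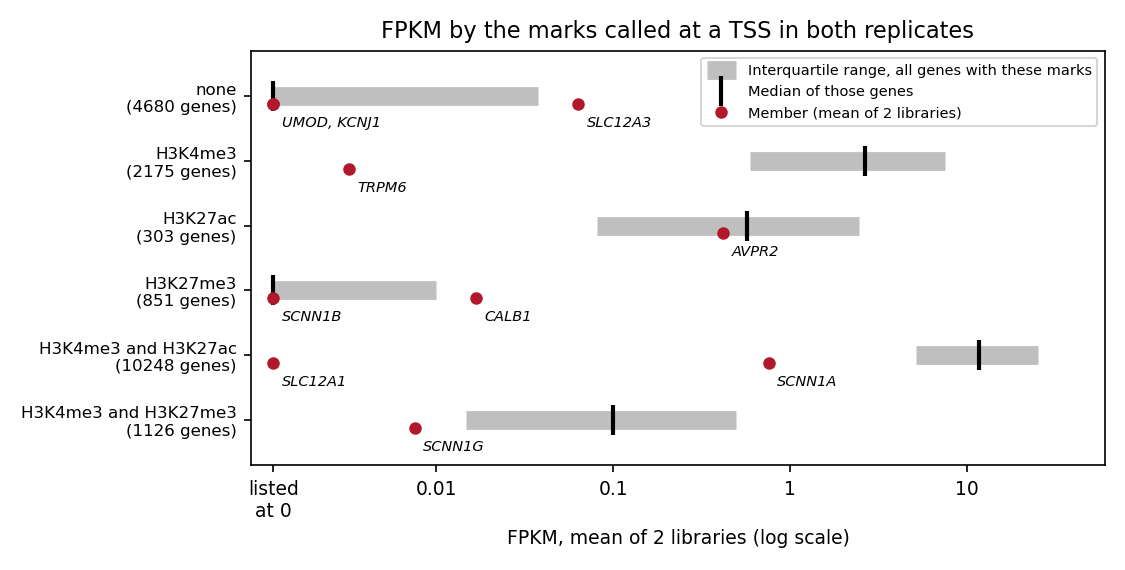
FPKM (mean of 2 libraries, log scale) of the 10 genes (points) by the marks called within 1 kb of a start in both replicates, beside the median (black line) and interquartile range (grey bar) of all protein-coding genes with the same marks. TRPM6, SCNN1G, SLC12A1 and SCNN1A lie left of the grey bar of their row, SLC12A3 and CALB1 right of it, and AVPR2 within it. The points of TRPM6, SCNN1G and CALB1 rest on 1 read pair each.

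Genes that work with the 10 were then examined by lists of the same pathways, each gene by its FPKM in both libraries. For the thick ascending limb, 4 of 13 partner genes reached 1 FPKM in both libraries, against 58.8% of all genes. MAGED2, needed for the surface expression of NKCC2 and NCC before birth, was highest at 94.1 ± 1.81 (SD, n = 2). The kinase genes OXSR1 and STK39, which are counted again in the WNK pathway below, were at means of 14.9 and 6.27. The fourth was EGF, a product of the thick ascending limb and distal convoluted tubule, at 1.69 and 1.11 FPKM with H3K27ac at its starts. CLDN16, a claudin gene of this segment, had H3K4me3 and H3K27ac and was at 0.199 and 0.213 FPKM. BSND, which encodes the accessory subunit barttin, and the claudin gene CLDN19 were listed at 0 in both libraries, and CASR, the calcium-sensing receptor gene, was at 0 with H3K27me3 alone at its starts.

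For the distal convoluted tubule, 8 of 14 magnesium and calcium genes reached 1 FPKM in both libraries, a share close to the 58.8% of all genes, with PCBD1, a cofactor of transcription, highest at 98.5 ± 2.26. TRPM7, the widely expressed relative of TRPM6, was at 6.23 and 6.45 FPKM. KL, FXYD2 and KCNJ16 also reached 1 FPKM in both libraries, with means of 10.7, 6.66 and 3.14 FPKM. FXYD2 had H3K27me3 as well as H3K4me3 and H3K27ac at its starts. Of the 14, 5 were listed at 0 in both libraries, against 19.6% of all genes. They were the calcium channel gene TRPV5, the parvalbumin gene PVALB, KCNA1, KCNJ10 and S100G. PVALB and KCNA1 carried H3K27me3 alone, as CALB1 did, and KCNJ10 carried H3K4me3 and H3K27me3. In the WNK pathway, which controls NKCC2 and NCC by phosphorylation, 6 of 8 genes reached 1 FPKM in both libraries, against 58.8% of all genes. WNK1 was highest at 24.6 ± 4.31. KLHL3, the adaptor that targets WNK kinases for degradation, was at 0.0151 and 0.00766 FPKM.

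Of 13 genes that regulate ENaC or encode its further subunit, 10 reached 1 FPKM in both libraries, against 58.8% of all protein-coding genes, and SGK1, a kinase induced by aldosterone, was highest at 45.3 ± 2.2. NEDD4L, the ubiquitin ligase that removes ENaC from the membrane, was at 19.2 and 26.1 FPKM, and NR3C2, the mineralocorticoid receptor gene, was at 1.23 and 1.35 FPKM with H3K4me3 and H3K27me3 at its starts. SCNN1D, which encodes the delta subunit, was at 0.977 and 1.3 FPKM. For vasopressin signalling and water transport, 7 of 12 genes reached 1 FPKM in both libraries, a share close to the 58.8% of all protein-coding genes. GNAS, the gene of the stimulatory G protein that V2 couples to, was highest at 576 ± 3.96. AQP2, the water channel that vasopressin moves to the membrane, was listed at 0 in both libraries and had no mark at its starts in both replicates.

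Of 8 intercalated cell genes, CA2, a carbonic anhydrase also present in other cells, was the 1 gene that reached 1 FPKM in both libraries, at 14.8 ± 1.66. Among all protein-coding genes the share was 58.8%. FOXI1, the factor that defines intercalated cells, was listed at 0. Of 18 transcription factor genes of the distal nephron, 6 reached 1 FPKM in both libraries, against the same 58.8%. PAX8 was highest at 102 ± 2.79, and LHX1, a factor of the early nephron, was at a mean of 61. ELF3, GATA2 and TFAP2A, which are present in collecting duct or distal epithelium, were at means of 33.1, 4.27 and 3.53 FPKM. GATA2 and TFAP2A had H3K27me3 as well as H3K4me3 and H3K27ac at their starts. GATA3 and TFCP2L1 of the same list were at means of 0.384 and 0.0418 FPKM, both with H3K4me3 and H3K27me3. Of the 18, 6 were listed at 0 in both libraries, against 19.6% of all genes. They were TFAP2B, GRHL2 and IRX1, factors of the later nephron segments, and EHF, ELF5 and IRX2. TFAP2B carried H3K27me3 alone.

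**Figure D5:**
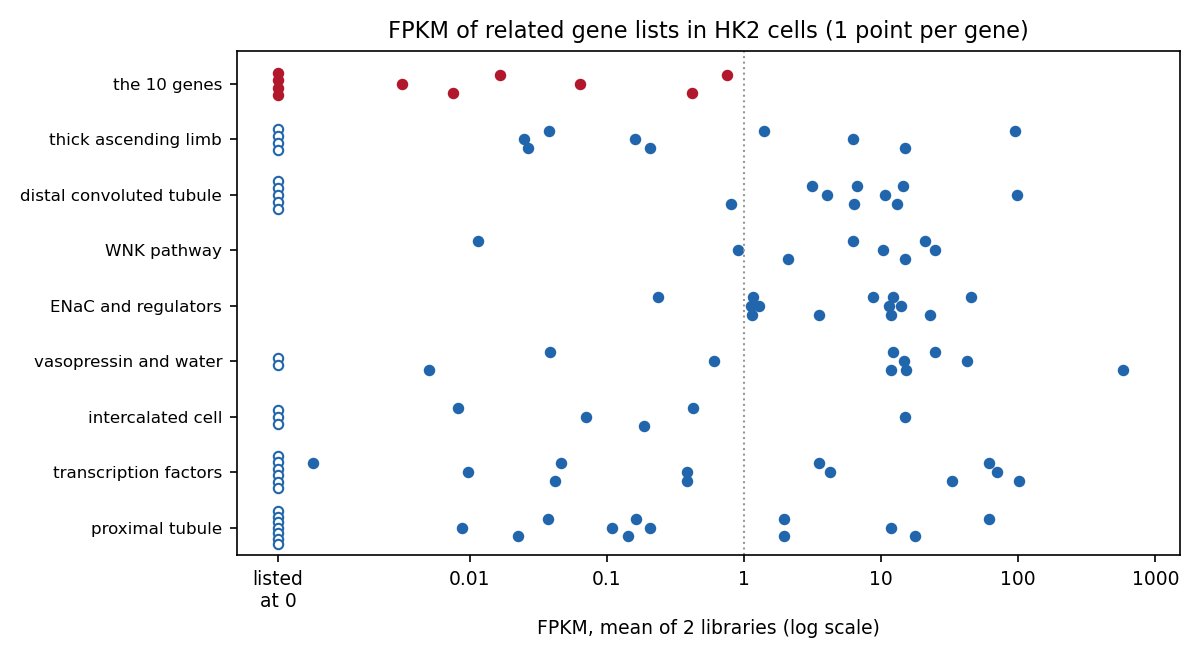
FPKM (mean of 2 libraries, log scale) of the 10 genes (red, top row) and of the genes of 8 lists (blue, 1 point per gene), with values listed at 0 drawn at the left edge as open points for the lists. The dotted line marks 1 FPKM, and no point of the top row lies to its right. Every list has at least 1 gene there, and 58.8% of all protein-coding genes reached 1 FPKM in both libraries.

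Markers of other cells were low in part. Of 11 matched markers of podocytes, endothelium, fibroblasts, blood and liver, 3 reached 1 FPKM in both libraries (PODXL, COL1A1 and CD68), against 58.8% of all protein-coding genes. Of the 11, 4 were listed at 0 in both, against 19.6%. The summed FPKM of the 11 was 88.2 in library 1 and 83.3 in library 2, most of it from COL1A1 at 40.1 ± 0.29 and CD68 at 39.6. COL1A2, VWF and PTPRC were at 0. In bulk RNA, fewer cells that express a gene and less RNA per cell cannot be told apart, which applies to the FPKM of SCNN1A, AVPR2 and SLC12A3.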

How the data were processed

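RNA-seq (2 libraries) and ChIP-seq peaks (3 marks, 2 replicates each) of HK2 cells were used. The input and HiChIP samples were not used here. The authors sequenced rRNA-depleted total RNA, mapped it with HISAT2 and deposited FPKM, TPM and coverage per transcript from StringTie 1.3.3 with GENCODE version 27. The methods name hg19 for the mapping, while these tables carry GRCh38 coordinates, so genes were joined to the peaks by Ensembl identifier only. Peaks were aligned by the authors to hg19 with Bowtie2 and called per replicate with MACS2. The deposited lists hold 3 fields per peak, with no score, signal or depth. The sample of each mark whose label gives no replicate number was called replicate 1.

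FPKM was summed over the transcripts of a gene. Starts and gene limits were those of GENCODE version 44 mapped to GRCh37. A mark was taken as present where a peak shared at least 1 bp with the 1 kb on either side of a start, or with the gene body. FPKM of 3 read pairs was used as the limit at a count of 0. With 1 condition no group was compared and no test was made. The 10 genes, the lists and the rules were chosen with earlier results of these data known. Named genes outside the 10 were the highest of each list, overlapping or neighbouring genes and, chosen after their values were seen, the other list genes given as examples. Some genes of the lists are counted but not reported by name here. Alternatives covered the unit, threshold, replicates, window, start set, peak width and transcripts. The peak overlap was checked on simulated data. Python 3.11.15, numpy 2.4.6, scipy 1.17.1 and matplotlib 3.10.9 were used.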

Additional observations from a re-analysis of the deposited data

How the results depend on the processing

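No paired analysis was possible because the results come from no test between groups. Of 60 alternative values of the 8 main results, 47 stayed within 1.5 times the count, or within 1 SD of the median. The count of 0 genes that reached 1 FPKM in both libraries became 2 at a threshold of 0.1 and 1 (SCNN1A) in TPM, and was 0 to 0 when a library was left out. The median of 0.00538 FPKM was 0.0149 in TPM, 0 to 0.00323 with 1 library left out (0 without library 2), and 0.00161 without transcripts that share exon bases with another gene. Without those transcripts SCNN1A fell from a mean of 0.756 to 0.216 FPKM. With peaks of at least 500 bp, H3K4me3 was called for 2 genes at a start and for 2 over the body (SLC12A1 and SCNN1A in each case), so that TRPM6 and SCNN1G rest on narrower peaks in at least 1 replicate. With canonical starts alone, H3K27ac was called for 1 gene, SCNN1A. Over the body, H3K27ac was called for 6 genes with a peak in either replicate and for 2 to 6 with a replicate left out (6 without replicate 2). Counting only peaks that touch no 1 kb window of a start left 1 gene for H3K4me3 (SLC12A3), 1 for H3K27ac (SCNN1A) and 2 for H3K27me3 (KCNJ1 and CALB1). The H3K27me3 count at starts was 3 under every alternative tried for it, with SCNN1B, SCNN1G and CALB1 in each. In settings chosen after the data were seen, starts of transcripts in the RNA-seq annotation gave 3 genes for H3K4me3 and 2 for H3K27ac, both without SLC12A1, and a shared base between replicates gave 3 for H3K4me3, without SCNN1A. Peaks without scores and genes at 1 read pair limit what can be read: SCNN1G, TRPM6 and CALB1 were not detectable above 0 at this depth, which does not show that they are absent.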
